A study of Mus musculus with 45 samples.

Results

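DNA transposon families were followed through the RNA-seq libraries of mouse embryonic stem cells, called mESCs here, in which the histone methyltransferase EHMT2 was degraded or inhibited. The members were the rows of the repeat tables whose repeat class is DNA, and they numbered 197 of 1146 repeat families. The series held 45 libraries in 15 groups of 3. In the time course, EHMT2-dTAG mESCs, which carry a degron tag on EHMT2, were given the degrader dTAG-13 or the solvent DMSO for 24 h or 7 d. In the washout experiment the same lines were kept in DMSO or dTAG-13 for 15 d, or were given dTAG-13 for 7 d and then left without it for 8 d (Recovery). In the sorting experiment EHMT2-dTAG mESCs with a MERVL-GFP reporter, driven by the promoter of an endogenous retrovirus, received DMSO or dTAG-13 for 72 h before a sort that gave GFP-negative cells and GFP-positive 2-cell-like cells. In the Dppa4 experiment J1 mESCs of the wild type (WT) and mESCs lacking Dppa4 (KO) spent 48 h in DMSO or in UNC0638, which inhibits EHMT1 and EHMT2. Per the labels, 3 clones stand behind the time course and washout groups. They number the sorted libraries without a clone and speak of independent clones of each genotype for the Dppa4 experiment. The cells grew on mouse fibroblast feeders, and the EHMT2-dTAG lines carry the tag in the DMSO groups as well.

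DNA transposons move by cut and paste. A transposase encoded by a full-length copy binds the inverted repeats at the ends of the element, excises it and inserts it elsewhere, and shorter copies without the gene depend on that enzyme. The families annotated in the mouse genome are ancient remnants, most of them of the hAT group or the Tc1/mariner group, and they are regarded as immobile. LTR elements, LINEs and SINEs move instead through an RNA copy, and the LTR element MERVL is a known mark of the 2-cell-like state. Copies of DNA transposons lie within introns and untranslated regions of genes, and a family's count sums reads over all its copies, so it does not tell which copies were transcribed or from which promoter.

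The 197 families fell into 13 superfamilies, and the hAT group dominated. hAT-Charlie held 73 families and 69.8% of the summed level in the Dppa4 experiment, TcMar-Tigger 44 families and 16.4%, and hAT-Tip100 31 families and 9.30%. hAT-Blackjack had 8 families, TcMar-Tc2 8, hAT without a subdivision 7, and 11 families had no superfamily. Levels were steeply unequal among families. URR1B and URR1A, both hAT-Charlie, made up 26.8% of the sum, and the 10 most abundant families made up 60.0%. The mean level over the 12 libraries was 1486 normalized counts for URR1B and 1232 for URR1A, while the median family had a mean of 8.50. A mean of at least 10, which was required for a comparison, was reached by 92 of the 197 families in the Dppa4 experiment, 117 in the time course, 89 in the washout and 154 in the sorted cells. Of the rest, 9 families were at 0 in all 12 libraries of the Dppa4 experiment.

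Depth in the Dppa4 experiment was 8399885 to 12710949 gene reads a library, and 7715 to 15101 reads a library fell on DNA families. These made up 1.82% to 2.73% of the repeat reads. Dppa4 was at 0 in all 6 KO libraries, and its lowest level in DMSO-treated WT was 700.4. The 10 pluripotency genes examined were above 0 in every library and summed to 51859 to 77547. The third KO UNC0638 library stood apart, with repeats taking 2.41% of its reads against 4.18% and 5.05% in the other KO UNC0638 libraries, and with the lowest mitochondrial share of the 12, at 1.98%. The tables of the other 3 experiments gave the authors' mean of each group and no library values, so these values carry no SD, and no test was possible on them. Each table was normalized separately, and levels are compared only within a table. In bulk samples, fewer cells of a type and less RNA per cell cannot be told apart.

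The Dppa4 experiment addressed whether inhibition of EHMT1 and EHMT2 moves repeats with and without DPPA4, and it is the experiment in which DNA families could be tested. The summed level of the 197 families was 9338, 9490 and 9257 normalized counts in WT DMSO and 12533, 10279 and 12057 in WT UNC0638. All WT UNC0638 libraries were above all WT DMSO libraries. The share of gene counts on mitochondrial genes was also higher there, at 2.57% to 2.95% against 2.24% to 2.43%, and its part was not tested. The sum was 9798, 8840.0 and 10336 in KO DMSO and 11368, 11274 and 7152 in KO UNC0638. The KO groups overlapped, and the third KO UNC0638 library was the lowest of the 12. The 9 markers of the 2-cell-like state summed to 93.1, 348 and 1510 in WT DMSO and to 763, 1059 and 6339 in WT UNC0638, and in KO all 9 were at 0 in 5 libraries and 8 in the other, and their part in these levels was not tested. Means were 9362 ± 118 and 11623 ± 1188 in WT and 9658 ± 758 and 9931 ± 2408 in KO (SD, n = 3 each). The ratio of means of UNC0638 over DMSO was 1.24 in WT and 1.03 in KO, and 1.17 in KO without the third UNC0638 library.

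**Figure D1:**
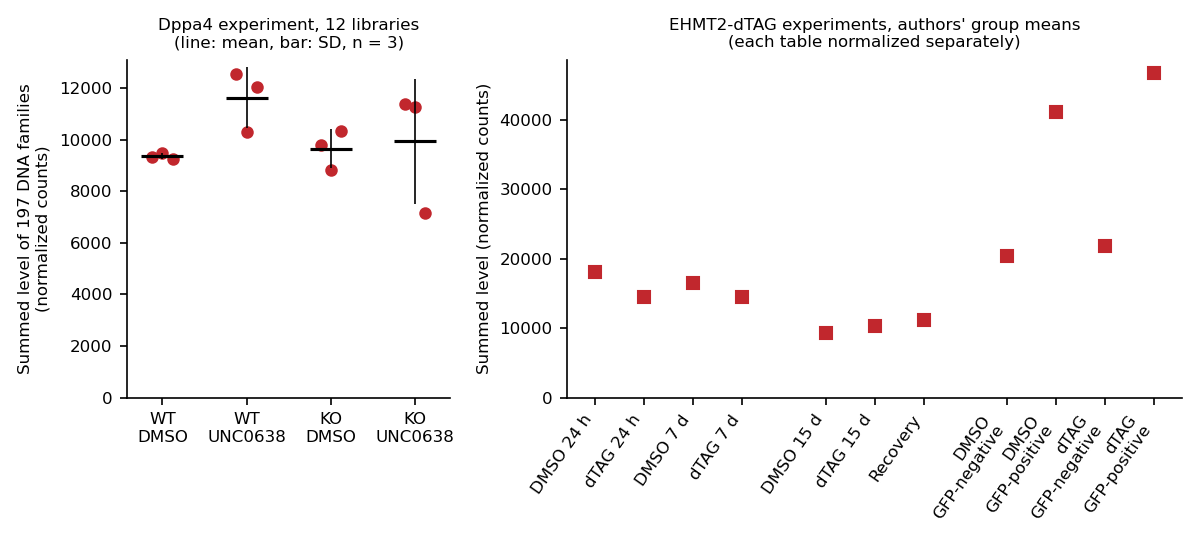
Summed level of the 197 DNA transposon families in normalized counts. On the left each point is a library of the Dppa4 experiment, with the group mean as a line and the SD as a bar; the third KO UNC0638 library, at 7152, lies below all others. On the right each square is the authors' mean of a group in the EHMT2-dTAG experiments, and the GFP-positive groups, at 41144 and 46706, lie above the GFP-negative groups of the same table, at 20402 and 21755.

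No DNA family passed the test with UNC0638 in WT. With limma on log2(normalized count + 1) and Benjamini-Hochberg adjustment over all 689 repeat families fitted, 0 of 92 DNA families had an adjusted p under 0.05, and the share among all repeat families was 0%. At an unadjusted p under 0.05 there were 8 of the 92 (8.70%, beside 11.5% of all repeat families), and edgeR and DESeq2 on the recovered reads also called 0. The log2 difference was above 0 in 78 of the 92 families, with a median of 0.37, beside 0.43 over all repeat families, 0.42 for LTR families, 0.56 for LINE families and 0.24 for SINE families. In 29 of the 92 families (31.5%) all 3 UNC0638 libraries were above all 3 DMSO libraries, and in 0 they were all below. Among all repeat families those shares were 28.7% and 0.435%, so the DNA families lay near the background. This shift depended on the scaling. The medians above use the deposited size factors, which were set over genes and repeats together, and with TMM factors set over the repeats themselves the DNA median in WT was 0.0047.

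The abundant families show the size of the shift in WT. URR1B was at 1359, 1432 and 1325 normalized counts in WT DMSO and at 1729, 1460.4 and 1725 in WT UNC0638, a log2 difference of 0.25 (SE 0.23). URR1A was at 1188, 1185 and 1065 against 1551, 1208 and 1339, a log2 difference of 0.25 (SE 0.25). In both families the groups did not overlap, and in both the adjusted p from limma was over 0.5. MER2, a TcMar-Tigger family, was at 479, 456 and 500.0 against 697, 738 and 655, with a log2 difference of 0.54 (SE 0.24, adjusted p = 0.38 with limma). MER5B, a hAT-Charlie family, was at 472, 491 and 469 against 671, 572 and 659, with a log2 difference of 0.41 (SE 0.21, adjusted p = 0.43 with limma). Of the 10 most abundant families, 9 had a log2 difference above 0 with the deposited size factors, the highest being that of MER2, while 5 of these 9 (URR1B, URR1A, MER5A, MER20 and Charlie1a) were below 0 with TMM factors over the repeats.

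FordPrefect, a hAT-Tip100 family and the third most abundant, was the exception among these 10. It was at 602, 558 and 858 normalized counts in WT DMSO and at 408, 434 and 864 in WT UNC0638, a log2 difference of -0.31 (SE 0.29). Its values in KO were 624, 862 and 604 with DMSO and 548, 641 and 795 with UNC0638. The groups overlapped in both genotypes, and its spread within a group was wider than that of URR1B in WT. In the third KO UNC0638 library, where the summed level was lowest, FordPrefect was the highest of its group.

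The families with the smallest p in WT were scarcer ones. Charlie24, a hAT-Charlie family, was at 9.31, 3.69 and 2.62 normalized counts in WT DMSO and at 35.2, 18.7 and 15.2 in WT UNC0638, a log2 difference of 2.01 (SE 0.69, adjusted p = 0.30 with limma). Tigger1 was at 19.8, 46.7 and 58.6 against 88.9, 63.5 and 92.6, a log2 difference of 1.07 (SE 0.40). MMAR1, a mariner family, was at 16.3, 48.0 and 35.8 against 67.8, 74.7 and 67.1, a log2 difference of 1.17 (SE 0.46). In these 3 families, picked for a small p, every UNC0638 library was above every DMSO library, as in 28.7% of all repeat families. Charlie2a and MER115 had larger log2 differences, 2.13 (SE 0.88) and 2.35 (SE 1.04), and each was at 0 in a WT DMSO library. The adjusted p of these 5 families lay between 0.30 and 0.38 (limma).

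In KO cells the families showed a smaller median with UNC0638. The median log2 difference was 0.067 over the 92 DNA families and 0.047 over all repeat families, with 47 DNA families above 0 and 45 not. No DNA family passed (0 of 92 with limma, edgeR and DESeq2, 1 at an unadjusted p under 0.05, beside 4.93% of all repeat families), and the share among all repeat families was 0%. Groups did not overlap in 2 families upwards and 2 downwards, where all repeat families gave 4.93% and 1.74%. Without the third UNC0638 library the median was 0.24, beside 0.26 over all repeat families, and 66 of the 92 were above 0. Charlie16a had the smallest p. It was at 4.89, 5.09 and 10.4 normalized counts with DMSO and at 16.6, 49.5 and 33.2 with UNC0638, a log2 difference of 2.07 (SE 0.69, adjusted p = 0.81 with limma).

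Between knockout and wild type in DMSO the median was close to 0. KO and WT cells are different lines, so line and genotype cannot be told apart here, under UNC0638 or in the interaction. The log2 difference of KO less WT had a median of 0.058 over the DNA families and 0.043 over all repeat families, and 0 of 92 DNA families had an adjusted p under 0.05 with limma, 0 at an unadjusted p under 0.05 (beside 6.53% of all repeat families), and 0 were called by edgeR or DESeq2. Among all repeat families 0.726% passed, which were LTR and LINE families. MERVL-int, the internal part of MERVL, was among those, at 2199, 4355 and 12607 normalized counts in WT and 952, 644 and 1006 in KO (log2 difference -2.54, SE 0.55, adjusted p = 0.0244 with limma). MER45R, the DNA family with the smallest p, was at 33.7, 11.1 and 15.7 in WT and at 7.83, 8.15 and 0 in KO, a log2 difference of -2.15 (SE 1.05, adjusted p = 0.75 with limma). Groups did not overlap in 2 DNA families upwards and 6 downwards, where all repeat families gave 6.1% and 5.22%. The 8 fibroblast genes examined as a sign of feeders summed to 2364 to 3854 in WT DMSO and 1199 to 1677 in KO DMSO, with 0 to 2 of them at 0, and their part in these differences was not tested.

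Under UNC0638 the DNA families lay lower in KO than in WT. The median log2 difference was -0.41, beside -0.32 over all repeat families, -0.51 for LINE, -0.26 for SINE and -0.23 for LTR families, and 15 of the 92 were above 0. None passed (0 of 92 with limma, 4 or 4.35% at an unadjusted p under 0.05, beside 13.1% of all repeat families, 0 called with edgeR or DESeq2), while 1.31% of all repeat families did. In 13 DNA families (14.1%) every KO library was below every WT library, and in 1 every KO library was above, where all repeat families gave 14.8% and 2.03%. Tigger7, with the smallest p, was at 298, 253 and 333 normalized counts in WT and at 195, 197 and 137 in KO, a log2 difference of -0.75 (SE 0.26, adjusted p = 0.18 with limma). MER2 followed at -0.62 (SE 0.24), with 697, 738 and 655 in WT against 621, 459 and 327 in KO. Tigger17a had a log2 difference of -0.92 (SE 0.39), and MER2B, another TcMar-Tigger family, -0.84 (SE 0.37). The fibroblast genes summed to 2159 to 2981 in WT UNC0638 and 1353 to 2093 in KO UNC0638, and their part was not tested. Without the third KO UNC0638 library the DNA median was -0.16, beside -0.10 over all repeat families. With TMM factors over the repeats and all libraries it was -0.11. MERVL-int had a log2 difference of -4.53 in the same fit (SE 0.55, adjusted p = 4.986e-05 with limma).

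The difference between the UNC0638 effects in KO and WT was tested as an interaction. Its median was -0.36 over the DNA families and -0.37 over all repeat families, and 22 of 92 DNA families were above 0. No DNA family and 0% of all repeat families passed (0 of 92 with limma, edgeR and DESeq2, 5 DNA families or 5.43% at an unadjusted p under 0.05, beside 4.79% of all repeat families). Charlie29a had the smallest p, with a log2 difference of -2.06 (SE 0.82, adjusted p = 0.76 with limma). It was at 12.8, 7.38 and 10.5 normalized counts in WT DMSO, 19.4, 14.0 and 24.8 in WT UNC0638, 20.5, 18.3 and 24.4 in KO DMSO and 8.28, 10.8 and 6.98 in KO UNC0638. Neither pair of groups overlapped, with UNC0638 above DMSO in WT and below it in KO. The choice of the smallest p of 92 favours such a pattern, and its share among all repeat families was not counted. Without the third KO UNC0638 library the DNA median was -0.20.

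The precision of these fits bounds what a p above the threshold says. The median SE of a log2 difference was 0.53 over the 92 families, and 0.75 for the interaction. The 95% confidence interval lay wholly between a 2-fold decrease and a 2-fold increase in 15 families for UNC0638 in WT, 25 for UNC0638 in KO, 27 for KO v WT in DMSO, 11 for KO v WT in UNC0638 and 5 for the interaction. For the remaining families a 2-fold change was not excluded by the interval. These counts depended on the scaling, and in the same order they were 31, 29, 32, 29 and 16 with TMM over the repeats and 7, 21, 24, 6 and 0 with scaling to gene reads. The within-group SD of a DNA family on the log2 scale had a median of 0.86 at mean levels of 10 to 20 and of 0.35 at 100 and over, where counting alone gives 0.49 and 0.10. Over all repeat families these SDs were 0.89 and 0.33.

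Across the 12 libraries the summed DNA level moved with that of the SINEs. The ratio of the sums ran from 6.32 to 7.29 normalized counts of DNA families per 100 of SINEs, a range of 1.15-fold. Per 100 of LTR families it ran from 2.89 to 5.62, a range of 1.94-fold, and per 100 of LINEs from 12.5 to 30.0, a range of 2.39-fold. The SD of the log2 ratio over libraries was 0.054 for SINEs, 0.32 for LTR families and 0.36 for LINEs. The 12 libraries share their depth and size factors within each sum, and this is a description without a test. In the washout experiment the group means gave 3.52 per 100 of SINEs in DMSO, 3.57 in dTAG and 4.655 in Recovery, a wider range than that of the 12 libraries. Among single families URR1B followed the summed DNA level most closely, with a root mean square difference of 0.049 on the log2 scale over 12 libraries, then URR1A with 0.093 and RCHARR1 with 0.15. URR1B and URR1A are themselves a large part of that sum.

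**Figure D2:**
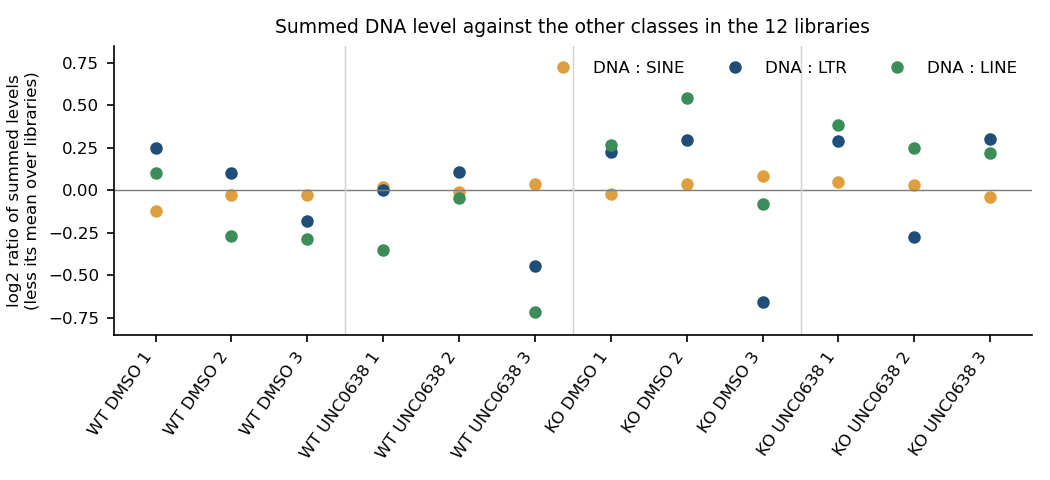
Log2 ratio of the summed DNA level to the summed level of SINE, LTR and LINE families in each library of the Dppa4 experiment, less its mean over the 12 libraries. The SINE points stay near 0 (SD 0.054), while the LTR and LINE points spread widely (SD 0.32 and 0.36), lowest in the third WT UNC0638 library for LINEs and in the third KO DMSO library for LTR families.

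In the EHMT2-dTAG time course most DNA families were lower with dTAG-13. The authors' means summed to 18058 normalized counts in DMSO and 14511 in dTAG at 24 h, and to 16513 and 14476 at 7 d. At 24 h the median log2 ratio was -0.33 over 117 DNA families, with 13 above 0, beside -0.25 over all repeat families and 0.0076 over genes. At 7 d it was -0.21, with 29 above 0, beside -0.12 and 0.0067. Past a 2-fold change there was 1 DNA family of 117 at 24 h and 3 at 7 d, all downwards. Of all repeat families 1.93% were past it at 24 h (0.829% upwards and 1.1% downwards) and 4.97% at 7 d (3.04% upwards and 1.93% downwards). The family at 24 h was Charlie17b, at 27.3 and 8.58. At 7 d they were MER91B (25.7 and 7.56), hAT-N1_Mam (54.6 and 22.4) and Zaphod (12.9 and 5.36). These are low levels, where the within-group SD in the Dppa4 experiment was widest. The DMSO groups themselves differed between 24 h and 7 d by a median of -0.12, with 1 of 117 past 2-fold, again Charlie17b (27.3 and 12.2), against 0.552% of all repeat families, all downwards. The comparison at 24 h and this one share the DMSO 24 h group, Charlie17b included.

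Families with a mean of at least 50 stayed within 2-fold in the time course. At 24 h the lowest were Charlie8 (95.5 in DMSO and 59.4 in dTAG), MER102b (133 and 85.1) and Tigger19a (151 and 98.3), and the highest were MMAR1 (139 and 136), MER44A and MER103C, with log2 ratios from -0.026 to -0.11. All of the families with a mean of at least 50 were thus below their DMSO level at 24 h. At 7 d Tigger17a was the highest, at 99.3 in DMSO and 153 in dTAG (log2 ratio 0.62), before Charlie4a (85.8 and 111) and MER44B (122 and 135). MER105 was the lowest (100.2 and 55.8), then FordPrefect (389 and 256) and MMAR1 (135 and 89.7). The markers of the 2-cell-like state summed to 177 in DMSO and 2256 in dTAG at 24 h and to 291 and 6862 at 7 d. The fibroblast genes summed to 1739 and 2413 and to 1610 and 2871, and the pluripotency genes to 90963 and 76932 and to 74338 and 67157. The part of these lists in the ratios was not tested. URR1B went from 2535 to 2126 at 24 h and from 2413 to 2090.0 at 7 d. The same groups showed MERVL-int at 5296 in DMSO and 28792 in dTAG at 24 h, and at 5074 and 80321 at 7 d.

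In the washout experiment the DNA families were slightly higher after 15 d of dTAG-13 and higher again in Recovery. The summed means were 9287 normalized counts in DMSO, 10267 in dTAG and 11194 in Recovery. The median log2 ratio of dTAG to DMSO was 0.11 over 89 DNA families, beside 0.27 over all repeat families, 0.32 for LTR, 0.36 for LINE and 0.052 for SINE families. Of the 89, 4 were past 2-fold, all upwards, where 10.2% of all repeat families were past it, 9.84% upwards and 0.312% downwards. They were FordPrefect (215 and 438), Tigger17a (56.8 and 125), MER63D of hAT-Blackjack (9.00 and 33.6) and Arthur1 of hAT-Tip100 (6.43 and 17.5). MER63D and Arthur1 were under 10 in DMSO and met the required mean of 10 through the dTAG and Recovery groups, where they were higher. Tigger6a (61.3 and 48.8), Cheshire (80.2 and 63.9) and Tigger1 (82.8 and 75.5) were the lowest among families with a mean of at least 50.

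After washout these families parted. FordPrefect was at 194 normalized counts in Recovery, near its DMSO level of 215, and Tigger17a at 84.9, between DMSO and dTAG. MER63D was at 16.5 and Arthur1 at 15.3, a log2 ratio to DMSO of 1.14 for the latter and the single one past 2-fold of 89, where 0.938% of all repeat families were past it. Arthur1, under 10 in DMSO, met the required mean through the dTAG and Recovery groups. Over all 89 the median of Recovery to DMSO was 0.28, beside 0.25 over all repeat families and 0.39 for LINEs, and 74 were above 0. Recovery to dTAG had a median of 0.13 over DNA families, 0.16 over SINEs, -0.12 over LTR families and -0.047 over all repeat families. It put 2 DNA families past 2-fold, FordPrefect downwards and MER106A upwards (10.5 and 23.3), against 4.69% of all repeat families, 0.312% upwards and 4.38% downwards. The markers of the 2-cell-like state summed to 523 in DMSO, 13284 in dTAG and 838 in Recovery. The DMSO group held the fibroblast genes at a summed 3940.5, dTAG at 4760 and Recovery at 1576, and the part of either list in these values was not tested.

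The largest ratios of DNA families among the 10 comparisons of group means were between the sorted populations. The summed means went from 20402 normalized counts in GFP-negative to 41144 in GFP-positive cells with DMSO, a ratio of 2.02, and from 21755 to 46706 with dTAG, a ratio of 2.15. The share of gene counts on lncRNA genes went from 0.662% to 1.01% and from 0.665% to 1.27%, and its part was not tested. The median log2 ratio over 154 DNA families was 0.95 with DMSO and 0.96 with dTAG, with 146 and 138 above 0, while all repeat families had medians of 1.38 and 1.44 and genes -0.028 and -0.060. Less the median of all repeat families the DNA medians turned to -0.43 and -0.47. That put 13 families past 2-fold upwards and 25 downwards with DMSO, and 13 and 39 with dTAG. Together these were 38 and 52 of 154, where 223 and 289 of 911 repeat families were past 2-fold after the same step. Past 2-fold were 71 families upwards and 1 downwards with DMSO, together 46.8%, where 68.4% of all repeat families were (67.8% upwards and 0.549% downwards). With dTAG 73 were up and 1 down, together 48.1%, where 67% of all repeat families were past it (66.5% upwards and 0.439% downwards). The required mean of 10 was taken over the 4 sorted groups, so 13 of the 154 families passed it through the GFP-positive cells, where they were higher. Among 141 with a mean of at least 10 over the GFP-negative groups, a filter chosen after seeing the data, medians were 0.90 and 0.87. Past 2-fold upwards were 59 with DMSO and 61 with dTAG, with 1 downwards each, together 42.6% and 44.0%. All repeat families under this filter gave 66.5% and 65.5%, with medians of 1.31 and 1.39. The 59 of the 154 families that were past 2-fold upwards in both treatments were 83.1% of the 71 and 80.8% of the 73, where all repeat families gave 91.3% and 93.1%. LTR families (1.50 and 1.58) and LINE families (1.39 and 1.50) had higher medians and SINE families lower ones (0.68 and 0.74). The share of DNA families among repeat counts was lower in GFP-positive cells although their level was higher, and went from 3.03% to 1.23% with DMSO and from 2.71% to 0.815% with dTAG.

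**Figure D3:**
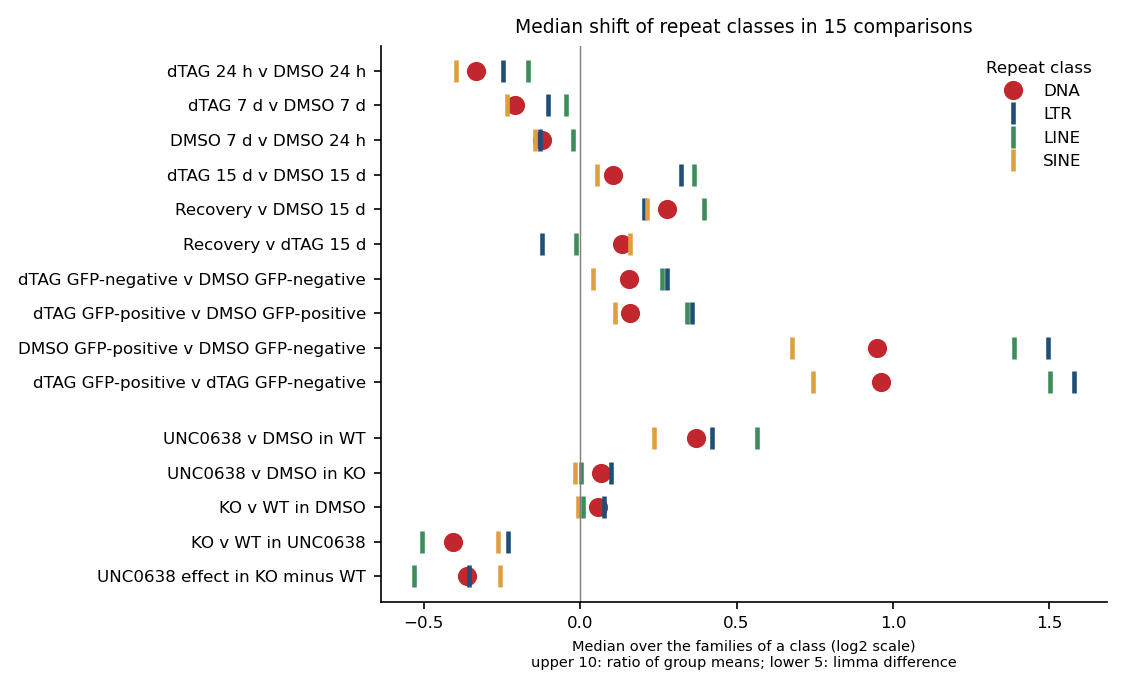
Median shift of the families of 4 repeat classes in 15 comparisons on the log2 scale, from group means in the upper 10 and from limma in the lower 5. The DNA point (circle) lies between the SINE mark and the LTR and LINE marks in both comparisons of GFP-positive with GFP-negative cells, at 0.95 and 0.96.

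The sort itself was on a MERVL promoter, which belongs to an LTR element and is no member of the class DNA. MERVL-int was at 6891 normalized counts in GFP-negative and 1643468 in GFP-positive cells with DMSO, and at 78865 and 3256077 with dTAG. The 9 markers of the 2-cell-like state summed to 767 and 133727 with DMSO and to 10153 and 240473 with dTAG, and the 10 pluripotency genes to 57675 and 30646, and to 50703 and 32361. The 8 fibroblast genes summed to 361 and 956 with DMSO and to 727 and 1640.4 with dTAG, and their part was not tested. Scaled to 1000000 gene counts instead, the DNA families summed to 2332 and 4226 with DMSO and to 2499 and 4054 with dTAG.

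hAT-Blackjack stood at the upper end of the superfamilies in GFP-positive cells. All 7 families that could be compared were above 0 in both comparisons, 7 were past 2-fold with DMSO and 6 with dTAG, and the medians were 2.10 and 2.07. Of all repeat families, 97.0% with DMSO and 95.4% with dTAG were above 0, and 67.8% and 66.5% were past 2-fold upwards. MER81 went from 37.5 normalized counts in GFP-negative to 578 in GFP-positive cells with DMSO, and from 66.0 to 894 with dTAG, log2 ratios of 3.91 and 3.74. MER63D went from 52.3 to 461 and from 88.2 to 1097, log2 ratios of 3.12 and 3.62. MER63C, named here after its values were seen, went from 25.1 to 183 and from 39.0 to 332. In unsorted cells of the time course MER81 stayed between 19.4 and 34.6, with the lowest value in dTAG at 7 d.

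hAT-Tip100 spread widely, with medians of 1.23 and 1.18 over 22 families and values on either side of 0. Arthur1 went from 24.1 to 211 normalized counts with DMSO and from 55.4 to 458 with dTAG, a log2 ratio of 3.08 and 3.02. Arthur1C went from 9.47 to 80.7 and from 12.0 to 181, and it was under 1.1 in every unsorted group. Arthur1 and Arthur1C reached the mean level required of families named by ratio only through the GFP-positive groups, where they were higher. Their selection thus favoured a high ratio. FordPrefect, the most abundant of the superfamily, went from 1025 to 2994 with DMSO and from 806 to 1963 with dTAG. MamTip1, named after its values were seen, was the single DNA family past 2-fold downwards in both comparisons. It went from 31.5 to 14.3 and from 33.9 to 11.9.

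The other large superfamilies had lower medians. TcMar-Tigger had medians of 1.13 and 0.96 over 36 families, with 22 and 17 past 2-fold upwards and 0 downwards. hAT-Charlie, which carries most of the level, had the lower medians of 0.73 and 0.72 over 63 families, with 17 and 24 past 2-fold upwards. Beside the counts of both superfamilies, 67.8% (DMSO) and 66.5% (dTAG) of all repeat families were past 2-fold upwards. URR1B went from 2413 to 4016 and from 2539 to 4478, and URR1A from 2455 to 4798 and from 2636 to 5565. Some abundant families hardly differed between the populations. MER105 was at 81.1 and 81.8 with DMSO, and MER102b at 117 and 124. Charlie4z was at 101 and 112 with DMSO and at 92.7 and 96.1 with dTAG, and Charlie2b with dTAG at 78.0 and 75.4.

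**Figure D4:**
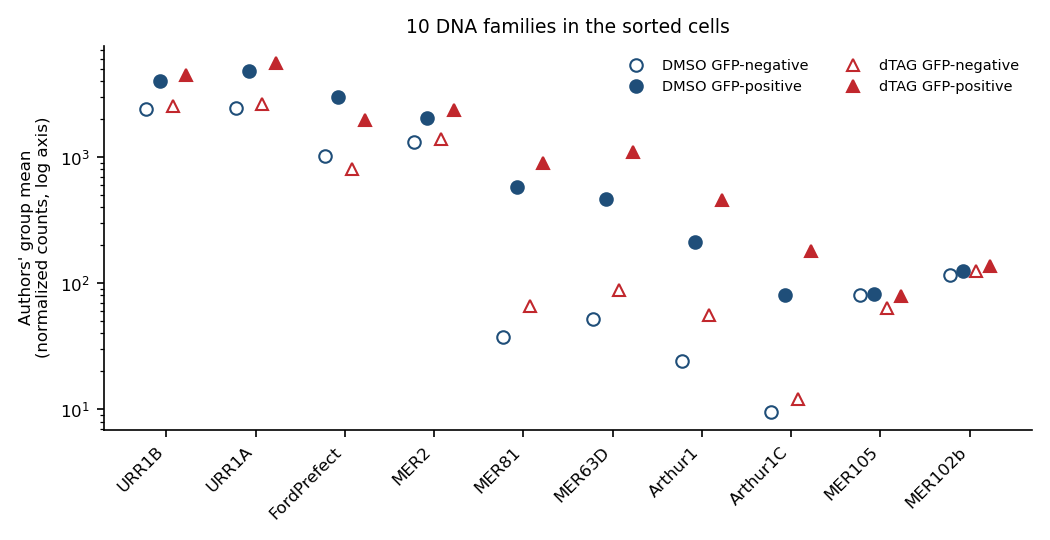
Authors' group means of 10 DNA families in the 4 sorted groups, in normalized counts on a log axis, with GFP-negative cells as open and GFP-positive cells as filled symbols. MER81, MER63D, Arthur1 and Arthur1C lie far apart between the populations, the abundant URR1B and URR1A less so, and MER105 and MER102b nearly coincide. Arthur1 and Arthur1C reached the mean level required of families named by ratio only through the GFP-positive groups.

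Within a sorted population the ratios of dTAG to DMSO were small. In GFP-negative cells the median log2 ratio of dTAG to DMSO was 0.15 over 154 families, beside 0.24 over all repeat families and 0.042 over SINEs. Of these, 4 were past 2-fold upwards against 7.35% of all repeat families, or 7.46% with those downwards. They were Arthur1 and the scarcer Ricksha_0 (5.22 and 18.1), MER125 (1.32 and 4.99) and Tigger6b (14.3 and 30.3). MER125 met the required mean of 10 through the GFP-positive groups. With a mean of at least 10 over the GFP-negative groups, 3 of 141 families were past 2-fold (2.13%, beside 5.89% of all repeat families). Arthur1 (24.1 and 55.4), MER81 (37.5 and 66.0) and MER63D (52.3 and 88.2) were the highest among families with a mean of at least 50 over the 4 sorted groups, a level that Arthur1 reached through the GFP-positive groups. The markers of the 2-cell-like state also summed higher there, at 10153 against 767, and their part in these ratios was not tested. In GFP-positive cells the median was 0.16, beside 0.30 over all repeat families, with 7 past 2-fold upwards and 4 downwards (6.81% of all repeat families, 5.93% upwards and 0.878% downwards). The 4 were Tigger12c (18.6 and 6.50), Kanga1d (22.7 and 8.41), Charlie18a (43.7 and 18.2) and Charlie17a (15.3 and 6.39). MER63D (461 and 1097), Arthur1C (80.7 and 181) and Charlie24 (166 and 363) were the highest, and Tigger17 (93.4 and 57.0) and FordPrefect (2994 and 1963) the lowest with a mean of at least 50.

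**Figure D5:**
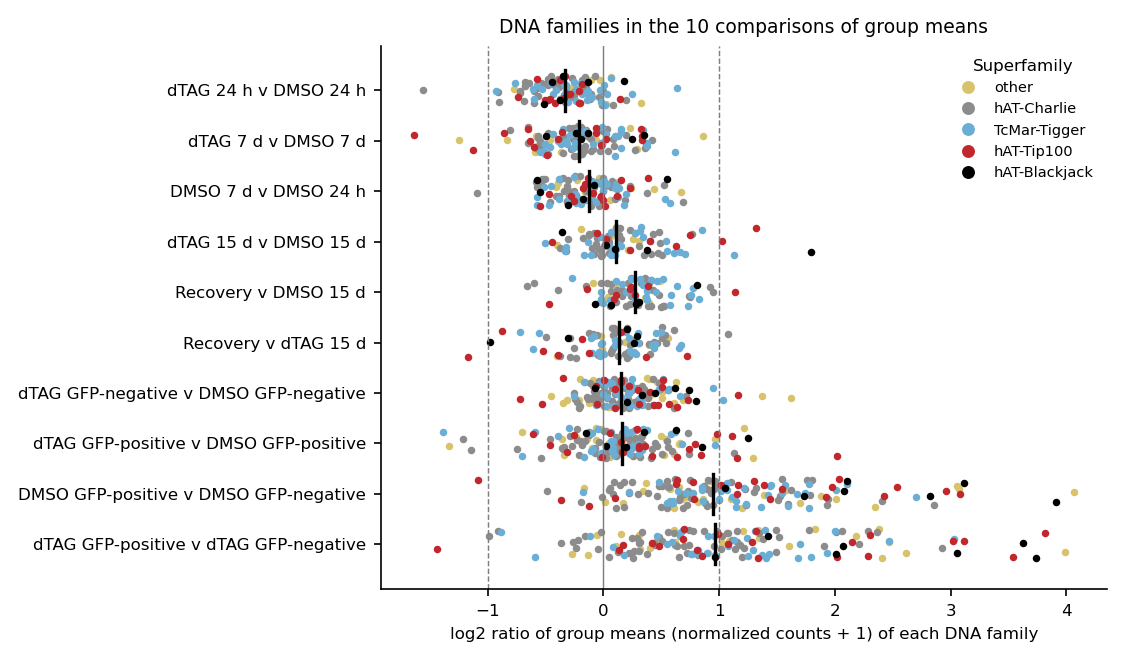
Log2 ratio of group means of each DNA family in the 10 comparisons of the EHMT2-dTAG experiments, coloured by superfamily, with the median as a vertical bar and a 2-fold change as dashed lines. The families crowd around 0 in the upper 8 rows, with 1 to 11 past 2-fold in each, and shift to the right in the lower 2, where 72 and 74 are past it.

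Of 89 DNA families with a value in all 3 tables, 39 (43.8%) stayed within a 2-fold change in all 10 comparisons, beside 25.5% of all repeat families. Charlie4a was the single DNA family within 0.5 on the log2 scale in all of them (1.12%, beside 1.88% of all repeat families). It was at 118, 93.3, 85.8 and 111 normalized counts in DMSO 24 h, dTAG 24 h, DMSO 7 d and dTAG 7 d, and at 136, 178, 159 and 199 in the sorted groups. Over the 4 comparisons of dTAG with DMSO in unsorted or GFP-negative cells, 2 of the 89 families were above 0 in all and 8 below 0 in all, or 2.25% and 8.99% beside 15.2% and 3.61% of all repeat families. Past 2-fold in all 4 were 0 DNA families and 0.627% of all repeat families.

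Genes that arose from DNA transposases were examined beside the families. The list held 26 genes, of which 25 were found in the gene table, among them Pogz, Pogk, Jrk and the Tigd genes, which descend from pogo-like transposases, Pgbd1 and Pgbd5 from piggyBac, Harbi1 from a Harbinger transposase, the Zbed genes from hAT elements and the Thap genes with their P-element DNA-binding domain. Of these, 22 could be fitted. With limma over 15850 genes, 0 of 22 had an adjusted p under 0.05 in any of the 5 contrasts, where all genes gave 0% for UNC0638 in WT, 0.562% for UNC0638 in KO, 7.17% for KO v WT in DMSO, 4.54% for KO v WT in UNC0638 and 0% for the interaction. The counts at an unadjusted p under 0.05 were 0, 2, 6, 2 and 0 of 22 in that order, where all genes gave 9.01%, 15.8%, 24.6%, 20.3% and 6.38%, and other tools were not run on the gene table. Zbed3, with the smallest p for KO v WT in DMSO, was at 364, 244 and 384 normalized counts in WT and 569, 542 and 399 in KO, a log2 difference of 0.62 (SE 0.22, adjusted p = 0.1001 with limma). Thap3, with the smallest for KO v WT in UNC0638, was at 95.1, 77.5 and 101 in WT and 147, 145 and 220.0 in KO, a log2 difference of 0.88 (SE 0.30, adjusted p = 0.11 with limma). In both genes, picked for the smallest p of 22, the groups did not overlap. The share of all genes without overlap was not counted.

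Between the sorted populations these genes had medians near 0. With DMSO 2 of 22 were past 2-fold upwards and 3 downwards, and with dTAG 1 and 3, where 24.2% and 20.8% of all genes were past 2-fold. Tigd2 went from 191 to 816 normalized counts with DMSO and from 260 to 618 with dTAG. Thap3 went from 134 to 48.2 and from 106 to 37.5, Naif1 from 255 to 108 and from 285 to 125, and Pgbd1 from 60.0 to 19.9 and from 52.0 to 19.7. The median log2 ratio of the 22 genes was 0.0115 with DMSO and -0.041 with dTAG, near the -0.028 and -0.060 over all genes. The DNA families had medians of 0.95 and 0.96.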

How the data were processed

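The authors trimmed reads with Trim Galore 0.6.7, aligned them to mm10 with STAR 2.7.10 (introns not allowed, reads with many places written at a single random place), counted genes of GENCODE and repeat families with TEcounts, and divided the counts by DESeq2 1.34.0 size factors. The deposited signal columns are these normalized counts, per library in the Dppa4 experiment and as group means elsewhere. Deposited tables of the authors' own comparisons hold their fold changes and p-values and were not used.

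In the Dppa4 experiment 100% of values gave whole reads (tolerance 0.01). limma 3.58.1 (R 4.3.3, trend) was run on log2(value + 1) over repeat families with a mean of at least 10, in a model of 4 groups. Families were called at an adjusted p under 0.05 and an absolute log2 difference of at least 1. Group means were compared as log2 ratios with a pseudocount of 1. edgeR 4.0.16 and DESeq2 1.42.0 were alternatives. The fit was tested on data simulated for UNC0638 v DMSO in WT, with 200 of 689 families changed at once and each family drawn independently. With the dispersion of these libraries, it found 40% of 2-fold and 86% of 4-fold changes at an adjusted p under 0.05, with 3 false calls. Shifts shared by the families of a library were not simulated. These shares may therefore not hold for the data. The p-values weigh a difference between groups against the spread between libraries within groups, pooled over the 4 groups.

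Named families were those called or, with fewer than 3 called, the 5 with the smallest p in each contrast, the 3 highest and 3 lowest by ratio with a mean of at least 50, and the 10 most abundant. Families past 2-fold are also named where 5 or fewer, chosen after their values were seen. The members and lists were chosen with earlier results of these data known.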

Additional observations from a re-analysis of the deposited data

How the results depend on the processing

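Counts of DNA families called, or with an adjusted p under 0.05, stayed at 0 in all 5 contrasts under every alternative but 1. Without a filter on low values, 1 family passed both rules for KO v WT in DMSO. It was FordPrefect_a, with a mean of 1.66 normalized counts. The replicate block also left these counts at 0. Whether the same replicate number marks the same clone across treatments is not known. Deviations of libraries with the same number correlated between -0.12 and 0.28 over repeats, and not every library correlated best with its own number. Such correlations cannot settle whether the libraries are paired. Leaving out each library in turn left the counts at 0. The edgeR fit with the deposited size factors, chosen after seeing the data, did so too.

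Scaling moved the medians. With edgeR (TMM), DESeq2 and limma on TMM over repeats, in that order, the median was -0.034, -0.064 and 0.0047 for UNC0638 in WT, -0.067, -0.051 and -0.11 for KO v WT in UNC0638, and 0.0021, 0.017 and -0.041 for the interaction. Under the same 3 settings the log2 difference for UNC0638 in WT turned negative for URR1B (-0.12, -0.15, -0.13), URR1A (-0.13, -0.16, -0.13), MER5A (-0.16, -0.19, -0.16), MER20 (-0.048, -0.077, -0.045) and Charlie1a (-0.057, -0.086, -0.048). Less the median over all repeat families, the DNA median was -0.081 for dTAG v DMSO at 24 h, -0.086 in GFP-negative cells, -0.17 for dTAG v DMSO at 15 d, -0.15 for dTAG v DMSO in GFP-positive cells, and -0.43 (DMSO) and -0.47 (dTAG) for GFP-positive v GFP-negative cells.

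Counts past 2-fold depended on the filter. With every family above 0 they were 12 (dTAG 24 h), 14 (dTAG 7 d), 6 (DMSO 7 d v 24 h), 16 (dTAG 15 d), 6 (Recovery v DMSO), 8 (Recovery v dTAG), 9 (dTAG, GFP-negative) and 17 (dTAG, GFP-positive). DNA families numbered 189 in the time course, 188 in the washout and 194 in the sorted cells. All repeat families gave, in that order, 60, 89 and 32 of 1090, 128, 45 and 90 of 1077, and 101 and 107 of 1123. With a mean of at least 50 the DNA counts were 0, 0, 0, 2, 0, 1, 1 and 4 in the same order. For GFP-positive v GFP-negative cells they were 42 with DMSO and 49 with dTAG. DNA families numbered 43 in the time course, 33 in the washout and 81 in the sorted cells. All repeat families gave 4, 20 and 0 of 439, 36, 1 and 17 of 377, 45 and 41 of 668, and 493 and 492 of 668. With a pseudocount of 5 the DNA counts were 0 of 117 (DMSO 7 d v 24 h), 0 of 89 (Recovery v DMSO), 1 of 89 (Recovery v dTAG) and 2 of 154 (dTAG, GFP-negative). All repeat families gave 1 of 724, 1 of 640, 22 of 640 and 45 of 911. Less the median of all repeat families the DNA counts were 0 of 117 (DMSO 7 d v 24 h), 2 of 89 (dTAG 15 d), 0 of 89 (Recovery v DMSO), 2 of 154 (dTAG, GFP-negative) and 38 of 154 (GFP-positive v GFP-negative, DMSO). All repeat families gave 7 of 724, 36 of 640, 2 of 640, 46 of 911 and 223 of 911. The causes were not tested. Scarce families varied most. In the Dppa4 experiment the within-group SD of DNA families had a median of 0.86 at mean levels of 10 to 20 normalized counts, where counting alone gives 0.49.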
